A study of Mus musculus with 29 samples.

Results

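Acetylation of histone H3 at lysine 9 (H3K9ac) was compared between Tbr2-positive and Tbr2-negative nuclei of E16.5 mouse embryonic cortex, all treated with TSA, an inhibitor of histone deacetylases. The members were the peak intervals called in 4 Tbr2-positive and 4 Tbr2-negative ChIP-seq libraries, 393763 of the 866003 H3K9ac intervals in the 15 libraries of the series. They were compared by presence, by width and by the rank of their pileup within a library, once over the full lists and once over lists cut to the 31823 intervals with the highest pileup, the length of the shortest list. Every library of either population carried TSA, and the labels give the sorted class as the genotype (Tbr2_pos or Tbr2_neg), with no dose, duration, strain or sex. Beside them stand 3 Tbr2-positive and 4 Tbr2-negative H3K9ac libraries treated with vehicle, and 2 RNA-seq libraries per population from TSA-treated cortex. Nothing in the labels says that replicates came from separate animals, so the p-values below measure the spread between these libraries, which may be technical. The protocol text names sorted fixed nuclei and whole tissue as sources of chromatin without tying either to a library, and describes RNA extraction from whole tissue, although the RNA libraries carry the same population labels. In bulk libraries, fewer nuclei of a type and less acetylation per nucleus cannot be told apart.

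As background, Tbr2, the T-box transcription factor encoded by Eomes, marks the basal (intermediate) progenitors of the cortex, which arise from radial glia and divide to give neurons. Nuclei without Tbr2 include radial glia, projection neurons, interneurons that migrate in from the ventral forebrain, and vascular and immune cells. H3K9ac is placed by acetyltransferases, removed by deacetylases, and lies mostly at the starts of transcribed genes.

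Promoter sequences from RefSeq (GRCm38.p6, 300 bases across an annotated start, 5′ to 3′ on the gene's strand) are shown for genes on which the comparison turned. Eomes had one of the largest rank differences, Neurod4 and Nhlh1 had an equal-length interval in every Tbr2-positive and in no Tbr2-negative library, Flrt2 was among the largest differences in the other direction, and Gad1 and Camk2b had an interval in every Tbr2-negative and in no Tbr2-positive library. Capitals mark CAGATG (the E-box bound by proneural factors), CAGCTG (another E-box) and AGGTGT (a core of T-box sites), read on both strands, so that CATCTG and ACACCT are marked too.
Eomes (chr9:118477939-118478238, plus strand): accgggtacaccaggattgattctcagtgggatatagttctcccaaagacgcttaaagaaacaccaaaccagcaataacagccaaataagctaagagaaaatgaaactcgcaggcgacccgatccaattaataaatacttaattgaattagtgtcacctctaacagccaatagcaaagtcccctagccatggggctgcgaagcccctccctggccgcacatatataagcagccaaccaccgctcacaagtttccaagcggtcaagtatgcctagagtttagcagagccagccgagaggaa
Neurod4 (chr10:130280205-130280504, minus strand): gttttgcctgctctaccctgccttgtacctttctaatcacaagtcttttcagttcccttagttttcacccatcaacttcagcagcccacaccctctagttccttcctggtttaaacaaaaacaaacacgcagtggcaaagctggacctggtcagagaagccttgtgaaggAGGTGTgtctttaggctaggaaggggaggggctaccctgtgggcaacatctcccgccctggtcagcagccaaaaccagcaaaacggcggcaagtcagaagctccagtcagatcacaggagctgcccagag
Nhlh1 (chr1:172057547-172057846, minus strand): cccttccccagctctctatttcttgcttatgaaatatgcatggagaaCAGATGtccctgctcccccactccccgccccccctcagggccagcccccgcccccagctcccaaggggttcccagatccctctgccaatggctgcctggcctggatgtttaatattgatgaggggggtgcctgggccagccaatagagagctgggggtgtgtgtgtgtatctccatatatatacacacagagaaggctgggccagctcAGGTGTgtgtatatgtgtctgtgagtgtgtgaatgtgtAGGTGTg
Flrt2 (chr12:95691976-95692275, plus strand): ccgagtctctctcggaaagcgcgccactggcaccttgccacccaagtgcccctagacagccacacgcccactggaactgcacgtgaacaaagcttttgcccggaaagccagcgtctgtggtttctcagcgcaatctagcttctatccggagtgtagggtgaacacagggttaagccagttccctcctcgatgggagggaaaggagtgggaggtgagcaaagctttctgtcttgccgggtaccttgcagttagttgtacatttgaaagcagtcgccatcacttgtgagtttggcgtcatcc
Gad1 (chr2:70561879-70562178, plus strand): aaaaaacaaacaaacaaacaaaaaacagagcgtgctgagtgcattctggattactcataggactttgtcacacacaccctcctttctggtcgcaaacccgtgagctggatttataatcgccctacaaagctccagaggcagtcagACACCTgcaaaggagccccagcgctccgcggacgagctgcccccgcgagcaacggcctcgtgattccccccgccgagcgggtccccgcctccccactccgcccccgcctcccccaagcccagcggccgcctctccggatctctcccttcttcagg
Camk2b (chr11:6065699-6065998, minus strand): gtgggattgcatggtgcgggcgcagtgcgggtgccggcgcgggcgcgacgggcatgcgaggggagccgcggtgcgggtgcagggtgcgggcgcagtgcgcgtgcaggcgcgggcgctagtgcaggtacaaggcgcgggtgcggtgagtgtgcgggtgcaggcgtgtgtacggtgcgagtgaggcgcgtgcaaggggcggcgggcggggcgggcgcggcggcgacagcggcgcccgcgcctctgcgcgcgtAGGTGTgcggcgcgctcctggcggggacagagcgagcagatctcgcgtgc
The printed Eomes and Flrt2 promoters hold no such letters, Neurod4, Gad1 and Camk2b hold 1 match each and Nhlh1 holds 3. Of the 24 genes with a promoter in the table among those called only in Tbr2-positive libraries, 41.7% held CAGATG, 25% AGGTGT and 8.33% CAGCTG, beside 17.2%, 13.9% and 16.1% of all 27024 promoters. Their median GC content was 52.3%, close to the 52.7% of all promoters, whereas the 123 promoters of genes called only in Tbr2-negative libraries had 59.3%, with CAGATG in 11.4%, AGGTGT in 17.9% and CAGCTG in 17.1%. Among the 523 promoters with a higher rank and the 712 with a lower rank in Tbr2-positive nuclei the median GC content was 61% and 62%, CAGATG was found in 12.1% and 15%, AGGTGT in 8.6% and 11.2%, and CAGCTG in 14% and 18%. Ranks were compared only among gene ends called in all 8 libraries. The 11688 promoters of those gene ends had a median GC content of 61.7%, with CAGATG in 10.8%, AGGTGT in 9.98% and CAGCTG in 14.7%. These shares are descriptions, and a match is not evidence of binding.

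The ChIP libraries held 22225481 to 30267202 tags in Tbr2-positive nuclei and 15173175 to 23073573 tags in Tbr2-negative nuclei, with one input of 20118388 tags for the Tbr2-positive and one of 25947550 tags for the Tbr2-negative group. The larger of ChIP and input was scaled towards the smaller, per the file headers, so the Tbr2-positive ChIP signal and the Tbr2-negative input were the ones scaled down. Lane codes placed 2 Tbr2-positive and 1 Tbr2-negative library in one lane, 1 and 2 in another and 1 and 1 in the last. Eomes RNA, a readout apart from the peak lists, differed in the direction of the population label. Eomes RNA stood at 391 and 462 CPM (counts scaled to library size) in the Tbr2-positive and at 14.2 and 8.24 CPM in the Tbr2-negative TSA libraries, a log2 fold change of 5.25 ± 0.32 (SE; edgeR adjusted p = 1.19e-05). Of 12 microglial genes 5 had no interval at the gene end in any of the 8 libraries, among them Csf1r and Trem2. The same held for 15491 of all 34610 gene ends. Of 16 vascular and meningeal genes 4 had none, among them Pecam1 and Cdh5. Flt1, a receptor gene of endothelial cells, was called in every Tbr2-negative and no Tbr2-positive equal-length list. So were 0.942% of the gene ends called in any such list. Pdgfrb, of the same gene list, was called in all 4 Tbr2-positive and 1 of 4 Tbr2-negative equal-length lists. In RNA 3 of the 12 microglial genes were lower in Tbr2-positive libraries and none higher, and none of the 15 vascular genes tested passed. Over all genes tested 5.13% were lower and 4.19% higher. The share of these cells in either fraction was not measured. Of 18 Hox genes, which are silent in cortex, 13 had none and no Hox gene was called in all 8 libraries.

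The peak lists of Tbr2-positive nuclei were shorter and more concentrated at gene ends, but the second property and the direction of the width difference depended on list length. Tbr2-positive libraries held 34045, 40053, 33359 and 31823 intervals, against 62329, 78929, 65390 and 47835 in Tbr2-negative libraries. The groups did not overlap (34820 ± 3610 in Tbr2-positive against 63621 ± 12758 in Tbr2-negative libraries, SD, n = 4 each; exact two-sided permutation p = 0.0286, the smallest that 8 libraries allow). Leaving out any 1 Tbr2-positive library gave an exact permutation p of 0.0571, where 0.0286 was the smallest possible. The differences were -27802 to -30545 intervals, and the groups still did not overlap. The direction was the same in each of the 3 lanes, with differences of -25280, -38801 and -16012 intervals. In vehicle the counts overlapped, at 82164, 61487 and 63496 intervals in Tbr2-positive and 60637, 78773, 69280 and 56403 in Tbr2-negative libraries. Tag counts, the input and the scaling moved with the group in the TSA libraries, and their part in the list lengths was not tested.

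The median interval of the full lists was 417, 344, 416 and 419 bases wide in Tbr2-positive nuclei and 275, 260, 257 and 320 bases in Tbr2-negative nuclei, a difference of 121 bases (399 ± 36.7 in Tbr2-positive against 278 ± 29.1 bases in Tbr2-negative libraries, SD; exact permutation p = 0.0286). Without Tbr2-negative library 1, 2 or 3 the difference was 120, 115 or 114 bases (exact permutation p = 0.0571 for each), still without overlap. With equal-length lists the order turned round: medians of 455, 451, 441 and 419 bases in Tbr2-positive nuclei stood below medians of 640, 557, 631 and 542 bases in Tbr2-negative nuclei, a difference of -151 bases (exact permutation p = 0.0286). Neither set of medians overlapped between the groups, and both directions held in every lane. Broad intervals of 2 kb or more made up 1.87% ± 0.162 of the equal-length lists in Tbr2-positive and 3.91% ± 1.69 in Tbr2-negative libraries, a difference that did not pass (exact permutation p = 0.0571) except without Tbr2-negative library 2 (-2.67 percentage points, exact permutation p = 0.0286).

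Of the full lists, 61.3% ± 3.87 of intervals in Tbr2-positive nuclei and 39.9% ± 5.43 in Tbr2-negative nuclei met a gene end, meaning a window of 1 kb on either side of an annotated start, or of both ends where the reference gives no strand (exact permutation p = 0.0286). Intervals inside genes made up 26.8% in Tbr2-positive and 44% in Tbr2-negative lists, and intervals away from genes 11.9% in Tbr2-positive and 16.1% in Tbr2-negative lists (exact permutation p = 0.0286 for each). Without Tbr2-positive library 1, 3 or 4 the last of these gave exact permutation p = 0.0571, at -4.18, -4.09 and -3.92 percentage points, still without overlap. In equal-length lists these shares lay close together, at 64.5% ± 0.405 in Tbr2-positive and 63.9% ± 6.5 in Tbr2-negative libraries for gene ends (exact permutation p = 0.886). Tbr2-negative library 2 stood apart there with 73.5% of intervals at gene ends beside 59.8%, 59.8% and 62.5% in libraries 1, 3 and 4, and without it the difference was 3.81 percentage points with no overlap (exact permutation p = 0.0286). Without Tbr2-negative library 1 or 3 it was -0.735 or -0.749 points, and within lanes 4.37, -1.81 and 2.35 points, so its direction was not stable. Pairs of equal-length lists shared a median of 69.8% of their bases within Tbr2-positive, 67.3% within Tbr2-negative and 59.1% between populations, with no overlap of the within and between ranges. In the full lists the medians were 68%, 54.5% and 49.4%, and pairs between populations reached 56.1% while pairs within Tbr2-negative went down to 51.8%.

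**Figure D1:**
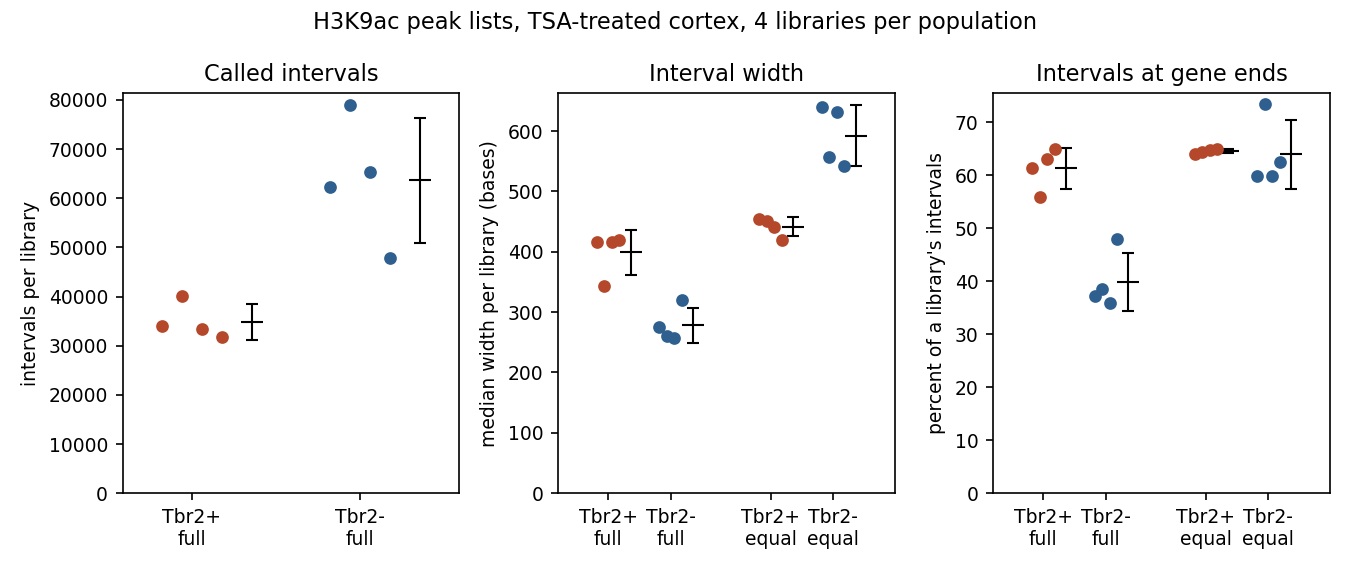
Number of called intervals, median interval width in bases and percent of intervals at gene ends in each H3K9ac library from TSA-treated cortex, for full lists and for lists cut to 31823 intervals. Points are libraries (Tbr2-positive red, Tbr2-negative blue) and bars are means with SD over 4 libraries. The width difference of 121 bases in full lists becomes -151 bases in equal-length lists, and the share at gene ends separates the groups only in the full lists.

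Merging all intervals that shared a base gave 120099 regions, of which 17922 were called in all 8 libraries. In the full lists 66 regions (0.055%) were called in 4 of 4 Tbr2-positive and 0 of 4 Tbr2-negative libraries, and 1931 (1.61%) the reverse. In the equal-length lists, which remove the difference in list length, 261 of 46792 regions (0.558%) were called only in Tbr2-positive and 422 (0.902%) only in Tbr2-negative libraries. These lists still differed in the bases they covered, at 19.3 Mb in Tbr2-positive and 24.1 Mb in Tbr2-negative libraries on average (exact permutation p = 0.0286). The Tbr2-positive-only regions lay mostly within genes: 51 at gene ends, 142 inside genes and 68 away, so that 19.5% were at gene ends, beside 41.7% of all equal-length regions and 48.8% of the 422 Tbr2-negative-only ones. Presence depended on the threshold, since 220 of the 261 had an interval in some full Tbr2-negative list and 72 of the 422 in some full Tbr2-positive list. These counts cannot be set against each other, because the cut to 31823 removed fewer intervals from the Tbr2-positive lists. Their full length was 31823 to 40053 intervals, against 47835 to 78929 in Tbr2-negative lists. In the vehicle libraries 173 of the 261 were called in all 3 Tbr2-positive lists of the same length and 69 of them in no Tbr2-negative list, while none showed the opposite pattern. Of the 422, 321 were called in all 4 Tbr2-negative vehicle lists and 190 of them in no Tbr2-positive one. Of all 46792 equal-length regions, 20181 were called in all 3 Tbr2-positive vehicle lists and 484 of them in no Tbr2-negative one. In the other direction 20260 were called in all 4 Tbr2-negative vehicle lists and 619 of them in no Tbr2-positive one. Leaving out 1 library makes the rule easier to meet: without Tbr2-positive library 2 the count of 261 became 407, and without Tbr2-negative library 2 the count of 422 became 764. In the full lists the count of 66 became 108 and 128 without Tbr2-positive libraries 1 and 4 and 112 and 102 without Tbr2-negative libraries 1 and 2, and the count of 1931 became 3617 without Tbr2-negative library 4. When intervals had to cover 50 percent of a region the equal-length counts were 146 and 1606.

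Among the strongest regions away from gene ends that were called only in Tbr2-positive nuclei, chosen by their mean rank in the equal-length lists, was one of 1309 bases at chr9:118486305-118487613 (mm10), 173 bases beyond the annotated end of Eomes and inside a neighbouring model with a clone name. Its pileup stood at the percentiles 44.7, 59.8, 42.6 and 54.8 of the 4 Tbr2-positive lists, and it was called in all 3 Tbr2-positive and in no Tbr2-negative vehicle list of the same length. It had an interval in 3 of the 4 full Tbr2-negative lists. A region of 956 bases inside Abcb9, a lysosomal peptide transporter gene (chr5:124078187-124079142), had percentiles of 53.2, 49.7, 49.8 and 70.8, and Abcb9 RNA was higher in Tbr2-positive libraries by a log2 fold change of 2.38 (edgeR adjusted p = 0.000731). The others were at chr4:82540620-82542986, 33869 bases from Nfib, a nuclear factor I gene of the developing cortex whose RNA was higher (log2 fold change 0.89, edgeR adjusted p = 0.015), and inside Ttc28 and Kctd14, whose RNA did not pass. The Nfib, Ttc28 and Kctd14 regions each had an interval in 3 of the 4 full Tbr2-negative TSA lists. In vehicle lists of the same length they were called in 2, 2 and 3 Tbr2-negative libraries. The Abcb9 region had an interval in 1 full Tbr2-negative TSA list and in no such vehicle list. Of the 5 strongest Tbr2-negative-only regions away from gene ends, 1 lay inside Rps6ka4, a kinase gene (chr19:6829810-6831592), and 1 lay 38121 bases from Ccr1, a chemokine receptor gene (chr9:123923049-123924005). Both were called in all 4 Tbr2-negative and in no Tbr2-positive vehicle list. The remaining 3, at chr4:42026795-42027141, chrY:90765500-90766007 and chr13:113718456-113718726, were called in 2 or 3 Tbr2-positive vehicle lists of the same length, and whether presence differed between treatments was not tested.

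To compare signal where every library had a peak, the summit pileup was turned into a percent rank within each library (100 the highest), since pileups of separate calls share no scale. Ranks were taken among the features called in all 8 libraries, so a low rank can still be a mid-range peak of the whole list. Over the 17922 regions called in all 8 libraries, 1048 (5.85%) ranked higher and 1287 (7.18%) lower in Tbr2-positive nuclei (limma, adjusted p below 0.05). The counts were 296 and 336 of 10222 regions when intervals had to cover 50 percent of a region, and 1748 and 2067 of 22600 with absent regions set to rank 0. Of the 14414 regions at gene ends 5.38% ranked higher and 6.87% lower, of the 2083 inside genes 8.07% and 8.79%, and of the 1425 away from genes 7.37% and 8%. The same fit over the 14519 gene ends called in all 8 libraries gave 646 higher (4.45%) and 906 lower (6.24%), from 548 and 787 distinct intervals, as neighbouring genes can share one. Without Tbr2-positive library 3 the second count was 584. The groups did not overlap at all at 579 of the 646 and 778 of the 906, beside 7.73% and 8.57% of all gene ends tested. The fit used the same ranks, so this separation follows largely from the selection and is not further support.

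Widths of these shared regions were more often narrower than wider in Tbr2-positive nuclei: 5639 regions (31.5%) passed as narrower and 196 (1.09%) as wider, with a median difference of -0.26 on the log2 scale over all 17922. After each library was centred on its own median, a step added after the widths had been seen, 1771 regions (9.88%) were wider and 1635 (9.12%) narrower. On that scale width and rank moved together: of the 1048 regions that ranked higher 409 were also wider and 4 narrower, and of the 1287 that ranked lower 582 were narrower and 11 wider. Width and pileup come from the same calls and are not independent measures.

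Eomes had the largest rank difference of any gene that is not named after a clone. Its gene end ranked at 95.6, 91.9, 97.9 and 87.4 in the Tbr2-positive libraries and at 0.758, 0.0585, 3.58 and 2.67 in the Tbr2-negative libraries (difference 91.4 ± 8.63 percent rank, SE; limma adjusted p = 5.69e-07). The groups were far apart, with Eomes among the highest gene ends shared by all 8 libraries in one population and among the lowest in the other. The value is that of the highest interval in the window, which was not the same interval in every library. Within the whole full lists that interval stood at the percentiles 98.3, 97.5, 99.2 and 95.2 in Tbr2-positive and 57.7, 28.1, 70.7 and 53.3 in Tbr2-negative libraries. The highest interval in its window was 3389, 3277, 3405 and 1653 bases wide in Tbr2-positive nuclei and 224, 165, 511 and 422 bases wide in Tbr2-negative nuclei, and its place differed. In Tbr2-positive libraries 1, 2 and 3 it began within the first bases of the gene, whose start is at chr9:118478189, and in library 4 it ended upstream of that start. In Tbr2-negative libraries 1, 3 and 4 it lay upstream of the start and in library 2 inside the gene.

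The next genes in this order were the following. Dmrta2, a doublesex-related factor of early cortical patterning, ranked at 95.6, 76.1, 97.4 and 99.5 in Tbr2-positive and at 8.52, 0.975, 14.4 and 27.9 in Tbr2-negative libraries (79.2 ± 9.6, limma adjusted p = 1.66e-05). Its antisense partner Dmrta2os shares the same interval, so the values of the pair are one measurement. Gli3, a transcription factor of the hedgehog pathway, ranked at 99, 78.6, 78.7 and 76.4 in Tbr2-positive and 18.6, 15.5, 6.79 and 8.76 in Tbr2-negative libraries. Emx2, a homeobox gene that patterns cortical areas, ranked at 98.6, 96.9, 99 and 95.9 in Tbr2-positive and 32, 19.2, 41.5 and 18.6 in Tbr2-negative libraries. Non-overlap was part of how these genes were chosen. The homeobox gene Otx1 (69.2 ± 9.09), the YAP partner Tead2 (68.4 ± 9.16), the nuclear factor I gene Nfia (66.9 ± 8.81), Zfhx4 (65.3 ± 9.09) and the zinc finger gene Sall1 (61.8 ± 9.08) completed the 10 largest differences, all with limma adjusted p of 0.000113 or less. Otx1 and Zfhx4 were read at both gene ends because the reference gives no strand for them.

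The largest differences in the other direction were these. Runx1t1, a corepressor gene read at both gene ends, ranked at 10.4, 9.97, 15.6 and 31.3 in Tbr2-positive and at 93.7, 97.5, 90.8 and 98 in Tbr2-negative libraries (difference -78.2 ± 9.24, limma adjusted p = 1.66e-05). Stmn2, a neuronal regulator of microtubules also read at both ends, ranked at 4.56, 12, 7.5 and 9.76 in Tbr2-positive and 86.7, 77.9, 78.2 and 95.6 in Tbr2-negative libraries. Its highest interval spanned 363 to 616 bases in Tbr2-positive and 2742 to 3244 bases in Tbr2-negative libraries, so height and extent differed in the same direction. Flrt2, which encodes an axon guidance and adhesion protein, ranked at 15.2, 6.02, 10.7 and 1.67 in Tbr2-positive and 71, 95.7, 80.5 and 79.9 in Tbr2-negative libraries. The orphan receptor gene Gpr12 (-73.9 ± 9.07), Amer3 (-68.5 ± 9.13), the postsynaptic scaffold gene Lrrc7 (-68.4 ± 8.9), the cell adhesion gene Chl1 (-67 ± 9.18), the transcription factor gene Nfil3 (-66.2 ± 9.02) and the kinase gene Plk2 (-63.8 ± 8.84) followed, all with limma adjusted p of 6.65e-05 or less.

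**Figure D2:**
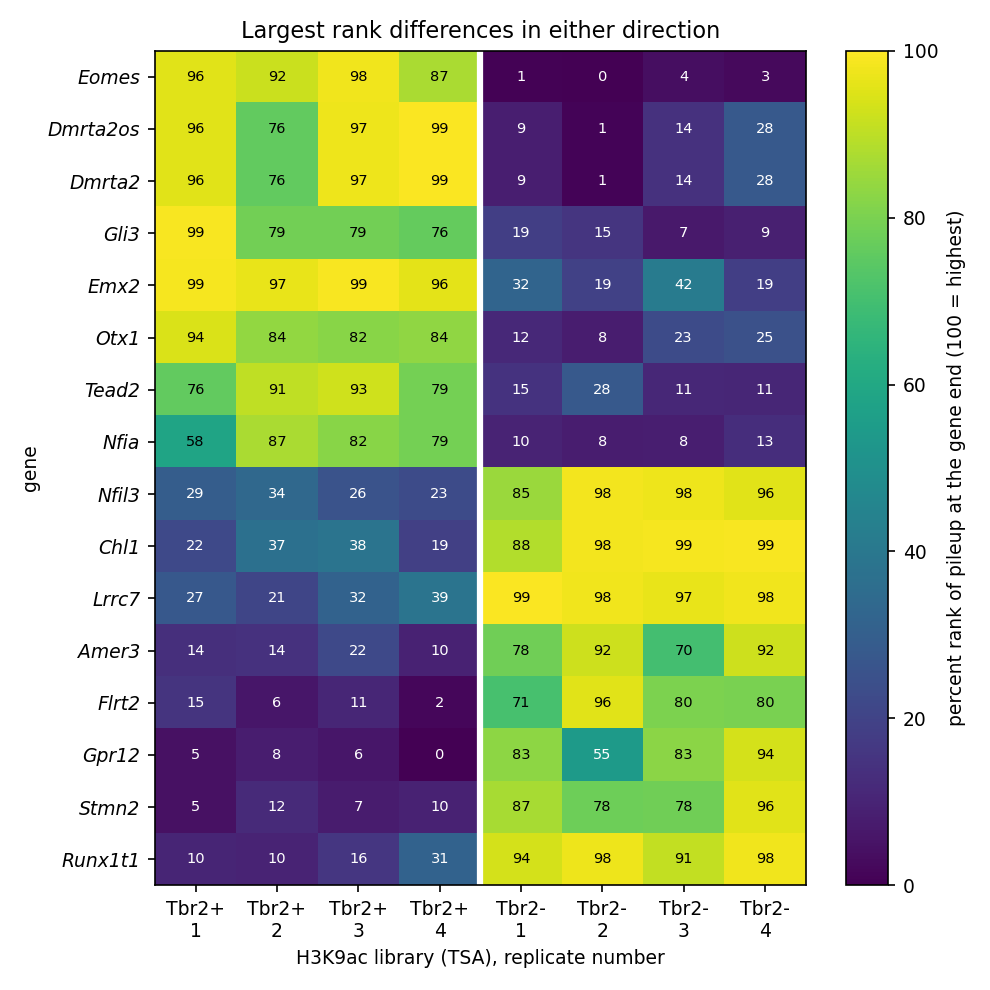
Percent rank of H3K9ac pileup at the gene end (colour and printed value, 100 the highest) in the 4 Tbr2-positive (left) and 4 Tbr2-negative (right) TSA libraries, for the 8 genes with the largest rank difference in each direction. The genes were chosen for groups that do not overlap, with Eomes at 87.4 or more against 3.58 or less.

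**Figure D3:**
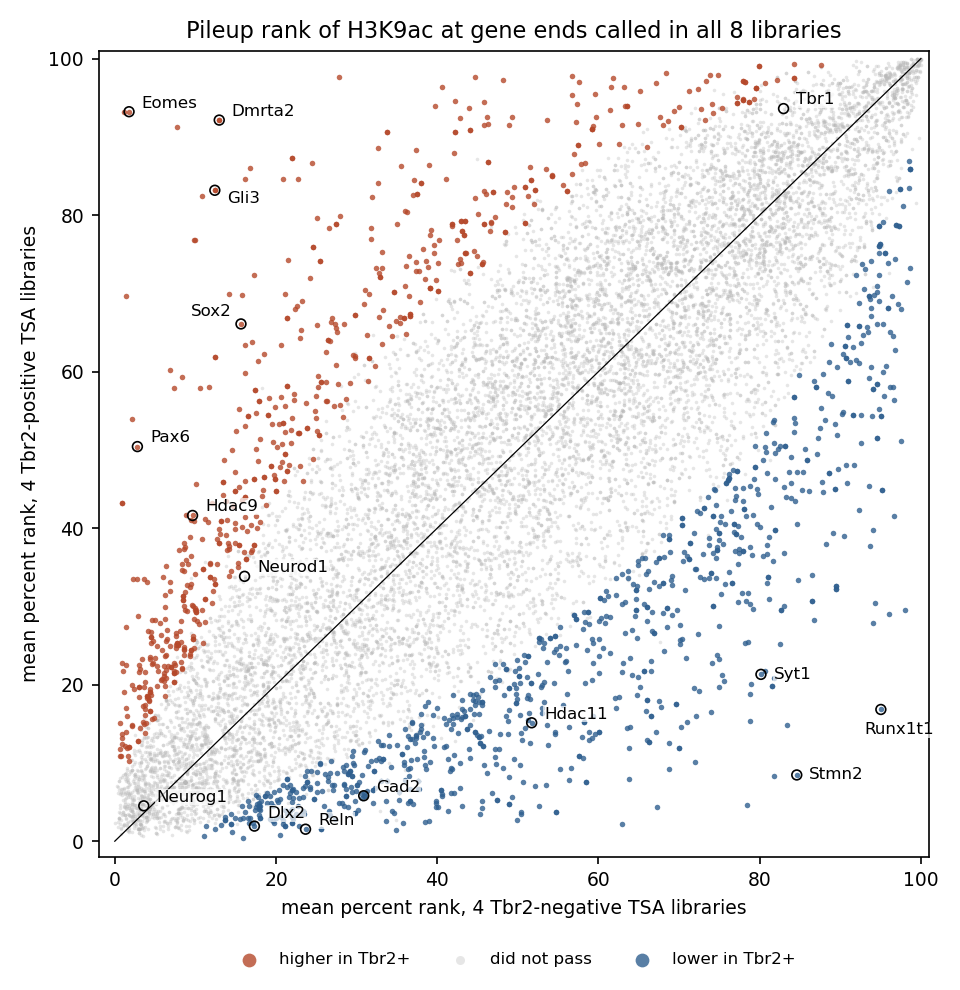
Mean percent rank at 14519 gene ends over 4 Tbr2-positive libraries (vertical axis) and 4 Tbr2-negative libraries (horizontal axis), with gene ends that ranked higher (646, red) or lower (906, blue) in Tbr2-positive nuclei and those that did not pass (grey). Circles mark named genes: Eomes and Dmrta2 lie in the upper left corner, Runx1t1 and Stmn2 in the lower right, and Neurog1 near the origin.

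Of 17 basal progenitor genes 13 were called in all 8 libraries, and 6 of these ranked higher and none lower, beside 4.45% and 6.24% of all gene ends, with a median difference of 20.9 beside 0.73 over all gene ends. Gadd45g, a stress-response gene used as a progenitor marker, ranked at 52.7, 87.4, 74.2 and 73.8 in Tbr2-positive and 32, 25.4, 20.8 and 18.6 in Tbr2-negative libraries (limma adjusted p = 0.00181). Sstr2, a somatostatin receptor gene, ranked at 91.3, 96.3, 87.5 and 91.5 in Tbr2-positive and 49.4, 51.2, 44.8 and 39.9 in Tbr2-negative libraries (limma adjusted p = 0.00105). Neither gene's groups overlapped, as held for most gene ends that passed the rank fit. The proneural gene Neurog2 ranked at 90.1, 57.1, 66.6 and 73.8 in Tbr2-positive and 20.6, 39.2, 41.5 and 52.9 in Tbr2-negative libraries (33.3 ± 10, limma adjusted p = 0.0328). That call ended without Tbr2-positive libraries 1 (0.12), 3 (0.0567) and 4 (0.073), without Tbr2-negative libraries 1 (0.103), 2 (0.0599) and 3 (0.0554), and with lane as a covariate (0.0525, limma adjusted p). Hes6 and Rhbdl3 also ranked higher. Neurod1, which follows Neurog2 in the neurogenic cascade, averaged 33.8 ± 8.05 in Tbr2-positive and 16.1 ± 8.32 in Tbr2-negative libraries (SD) and did not pass (limma adjusted p = 0.0767).

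Further members were present in one population only. Neurod4, a later gene of the same cascade, had an interval of 354, 308, 153 and 290 bases at its start in the 4 Tbr2-positive libraries and none in any Tbr2-negative library, in full as in equal-length lists. In the full lists 3 of 19119 gene ends (0.0157%), Neurod4 among them, were called only in Tbr2-positive and 391 (2.05%) only in Tbr2-negative libraries. The count of 3 was 7, 7 and 5 without Tbr2-negative libraries 1, 2 and 3. Nhlh1, a helix-loop-helix gene of newborn neurons, had equal-length percentiles of 42, 35.2, 36.5 and 36.4 in Tbr2-positive libraries, and a full-list interval in 1 Tbr2-negative library. The RNA of both genes was higher in Tbr2-positive libraries, at 154 and 77.9 CPM against 2.13 and 1.21 CPM in Tbr2-negative libraries for Neurod4 (log2 fold change 6.11 ± 0.55, edgeR adjusted p = 8.93e-05) and 25.1 and 30.9 CPM against 0.877 and 2.05 CPM in Tbr2-negative libraries for Nhlh1 (edgeR adjusted p = 0.000202). Neurog1, a paralog of Neurog2, behaved otherwise: its gene end ranked at 2.43, 2.91, 6.02 and 6.72 in Tbr2-positive and 2.43, 3.24, 8.24 and 0.465 in Tbr2-negative libraries, a difference of 0.92 ± 2.66 (limma adjusted p = 0.859). Its RNA stood at 6.96 and 4.47 CPM in Tbr2-positive and 0.0418 and 0.125 CPM in Tbr2-negative libraries (log2 fold change 6.01 ± 0.76, edgeR adjusted p = 0.000652).

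Of 24 radial glial genes, active in the cells from which basal progenitors arise, 23 were called in all 8 libraries. Of these 10 ranked higher, 13 did not pass and none ranked lower, beside 4.45% higher and 6.24% lower over all gene ends, with a median of 19.6. Pax6, a homeobox gene of dorsal radial glia, ranked at 45.1, 53.4, 59.1 and 44.1 in Tbr2-positive and 2.43, 3.24, 4.56 and 0.992 in Tbr2-negative libraries (47.6 ± 6.32, limma adjusted p = 4.44e-05), and its RNA was higher as well (log2 fold change 1.52 ± 0.27). Emx1 ranked at 97 to 98.1 in Tbr2-positive and 33.2 to 60.9 in Tbr2-negative libraries (limma adjusted p = 0.000293). Sox2, a stem cell factor gene, ranked at 86, 60.7, 61.6 and 56 in Tbr2-positive and 22.7, 13.1, 11.1 and 15.7 in Tbr2-negative libraries (50.4 ± 8.73, limma adjusted p = 0.000547). Its RNA ran the other way, at 28.9 and 36.3 CPM in Tbr2-positive and 57.6 and 55.3 CPM in Tbr2-negative libraries (log2 fold change -0.79 ± 0.23, edgeR adjusted p = 0.0452). Slc1a3, Fabp7, Fgfr1, Lhx2, Nr2e1 and Notch1 were the other calls, while Hes5, a notch effector, averaged 56.9 ± 8.44 in Tbr2-positive and 37.4 ± 16.8 in Tbr2-negative libraries and did not pass (limma adjusted p = 0.2). In RNA 5 of the 24 were higher and 3 lower, beside 4.19% and 5.13% of all genes tested.

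In the notch list, which shares Notch1 with the radial glial one, 2 of 11 called genes ranked higher, beside 4.45% of all gene ends, with a median of 1.90. The receptor gene Notch1 ranked at 52.7, 67, 76.6 and 71.1 in Tbr2-positive and 49.4, 13.9, 11.1 and 10.9 in Tbr2-negative libraries (limma adjusted p = 0.00337), and the ligand gene Dll3 averaged 32.4 ± 7.74 in Tbr2-positive and 9.35 ± 4.38 in Tbr2-negative libraries (limma adjusted p = 0.00744). Dll1, the other ligand read here, averaged 57.8 ± 5.51 in Tbr2-positive and 79.4 ± 8.49 in Tbr2-negative libraries and did not pass (limma adjusted p = 0.112), while its RNA was higher in Tbr2-positive libraries by 1.10 ± 0.24 on the log2 scale (edgeR adjusted p = 0.0132).

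Of 14 pan-neuronal genes called in all 8 libraries 6 ranked lower, 8 did not pass and none ranked higher, beside 6.24% lower and 4.45% higher over all gene ends, with a median of -27.7. Besides Stmn2 the calls were the synaptic vesicle gene Syt1, the growth cone gene Gap43, Ncam1, Grin2b and Celf4. Syt1 ranked at 16.9, 20.7, 18.7 and 29 in Tbr2-positive and 78.4, 89.1, 60.9 and 92.3 in Tbr2-negative libraries (limma adjusted p = 0.000291). Gap43, read at both gene ends, averaged 29.6 ± 11.7 in Tbr2-positive and 79.2 ± 5.59 in Tbr2-negative libraries (limma adjusted p = 0.00129). Mapt, the tau gene, had no interval at its gene end in any library. Layer genes did not move as one group, although most differences were positive. Of 12 deep-layer genes 8 were called in all 8 libraries, and of these 1 ranked lower and 1 higher, beside 6.24% and 4.45% of all gene ends. Their median difference was 14.6, and 6 of the 8 differences were positive. Crym, of the same list, was called only in Tbr2-negative equal-length lists, as were 0.942% of gene ends called in any such list. Sox5 had no interval in any library. In RNA 4 of the 12 were lower and 2 higher, beside 5.13% and 4.19% of all genes tested. Bcl11b, a factor of subcerebral neurons, ranked lower at 47.7, 18.4, 31.6 and 29 in Tbr2-positive and 89.8, 80.3, 67.3 and 76.6 in Tbr2-negative libraries (limma adjusted p = 0.00249). Fezf2, a factor of the same neurons and of progenitors, ranked higher at 73.6, 76.1, 86 and 83.5 in Tbr2-positive and 37.5, 45.1, 57.5 and 48.5 in Tbr2-negative libraries (limma adjusted p = 0.0213), with no RNA difference past the test (log2 fold change 0.01 ± 0.19). The Fezf2 call ended without Tbr2-positive libraries 3 (0.0687) and 4 (0.0592) and without Tbr2-negative library 1 (0.052, limma adjusted p). Tbr1, a T-box factor of deep-layer neurons, averaged 93.6 ± 2.53 in Tbr2-positive and 83 ± 10.5 in Tbr2-negative libraries and did not pass (limma adjusted p = 0.183).

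Of 9 upper-layer genes called, 3 ranked higher and none lower, beside 4.45% and 6.24% of all gene ends. Their median difference was 19.15, and 8 of the 9 differences were positive. Unc5d, a netrin receptor gene also used as a marker of basal progenitors and read at both gene ends, ranked at 84.2, 78.6, 91.1 and 68.3 in Tbr2-positive and 29.6, 48.1, 38.4 and 27.9 in Tbr2-negative libraries (limma adjusted p = 0.00311). Mdga1, a cell adhesion gene, averaged 91.4 ± 1.39 in Tbr2-positive and 59.3 ± 14.2 in Tbr2-negative libraries (limma adjusted p = 0.0121). Pou3f2 averaged 96.9 ± 0.259 in Tbr2-positive and 80.6 ± 6.14 in Tbr2-negative libraries (limma adjusted p = 0.0212), a call that ended without Tbr2-positive libraries 1 (0.0577), 3 (0.0587) and 4 (0.0504) and with lane as a covariate (0.0538, limma adjusted p).

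The interneuron list held 4 lower and 1 higher of 11 called genes, beside 6.24% and 4.45% of all gene ends, with a median of -12.4. A further 2 of its 16 genes were called only in Tbr2-negative equal-length lists, as were 0.942% of all gene ends. Dlx2, a homeobox factor of the ganglionic eminences, ranked at 0.523, 2.91, 0.434 and 3.86 in Tbr2-positive and 22.7, 13.9, 11.1 and 21.6 in Tbr2-negative libraries (-15.4 ± 3.47, limma adjusted p = 0.00513). Dlx5, read at both gene ends, averaged 4.94 ± 2.98 in Tbr2-positive and 36.4 ± 12.1 in Tbr2-negative libraries, and Gad2, a GABA-synthesising enzyme gene, 5.81 ± 2.19 in Tbr2-positive and 30.9 ± 9.13 in Tbr2-negative libraries (limma adjusted p = 0.00105 and 0.00233). Gad1, the gene of the other such enzyme, had equal-length percentiles of 61.7, 54.3, 56.1 and 49.9 in Tbr2-negative libraries and no interval in any Tbr2-positive library, also in the full lists. Lhx6, a LIM homeobox gene of interneurons from the medial eminence, showed the same pattern, with percentiles of 47.7, 41.7, 50.8 and 49.9. In vehicle, full Tbr2-positive lists held Lhx6 in 3 of 3 libraries and Gad1 in 1. Sp8 was the member that ranked higher. In RNA all 16 interneuron genes were lower in Tbr2-positive libraries, beside 5.13% of all genes tested. Interneurons reach the cortex from outside and do not express Tbr2, and the share of these cells in each fraction was not measured here.

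**Figure D4:**
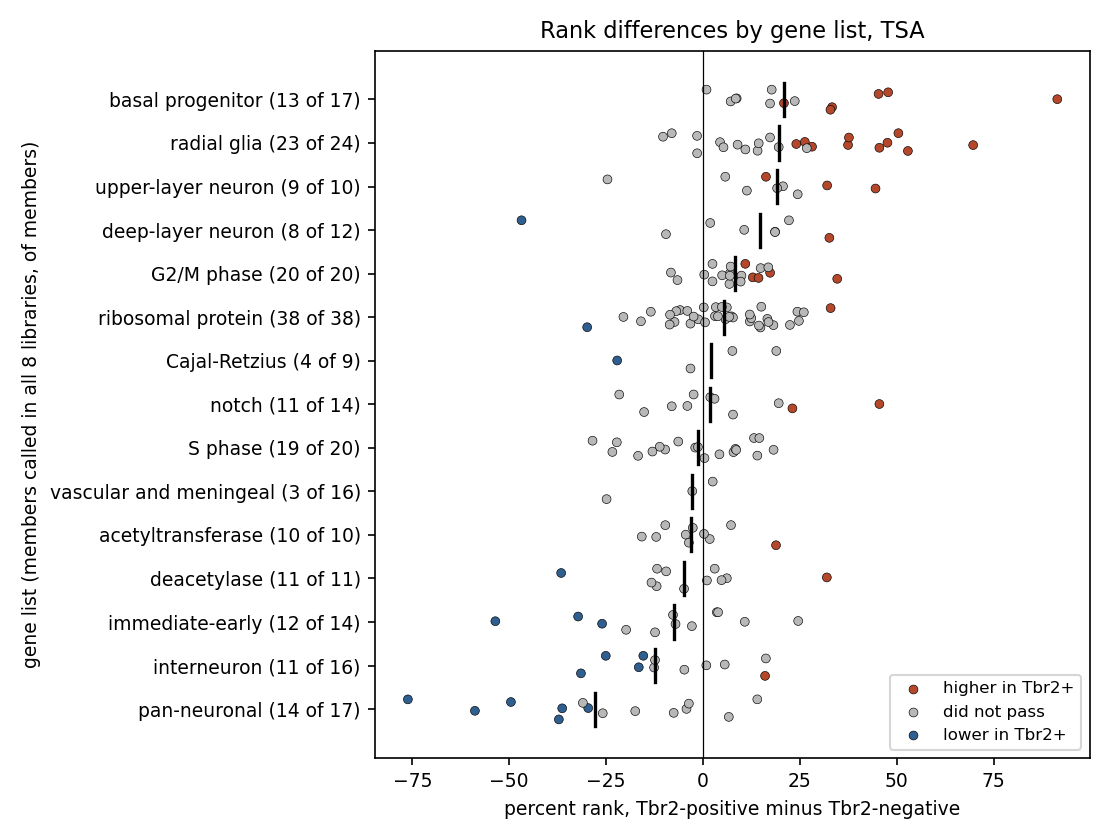
Difference in percent rank, Tbr2-positive minus Tbr2-negative, for each member of 15 gene lists called in all 8 TSA libraries. Points are genes (red ranked higher, blue ranked lower, grey did not pass), bars are list medians, and the lists run from a median of 20.9 for basal progenitor genes to -27.7 for pan-neuronal genes.

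For cell cycle genes, RNA passed far more often than H3K9ac rank. Of 19 S-phase genes called in all 8 libraries none passed in either direction, beside 4.45% higher and 6.24% lower over all gene ends. Their median difference was -1.30, while 14 of 20 were higher in RNA, beside 4.19% of all genes tested. Rrm2, a ribonucleotide reductase gene, averaged 45.7 ± 6.81 in Tbr2-positive and 74.2 ± 15.9 in Tbr2-negative libraries (limma adjusted p = 0.0608), with RNA at 189 and 109 CPM in Tbr2-positive against 34.2 and 48.6 CPM in Tbr2-negative libraries (edgeR adjusted p = 0.00362). Of 20 G2/M genes 5 ranked higher and none lower, beside 4.45% and 6.24% of all gene ends, with a median of 8.18. In RNA 16 of the 20 were higher, beside the same 4.19% of all genes. Hmgb2, a chromatin protein gene, ranked at 80.4, 98.6, 92 and 96.5 in Tbr2-positive and 68.2, 48.1, 51.1 and 61.5 in Tbr2-negative libraries (limma adjusted p = 0.00653), and Top2a, Cenpe, Cenpf and Kif23 were the other calls. The Cenpe call ended with lane as a covariate (0.0621) and without Tbr2-positive libraries 1, 2 and 3 and Tbr2-negative libraries 1, 2 and 3 (0.0509 to 0.0776), and that of Cenpf with lane (0.0678) and without Tbr2-positive libraries 2 and 4 and every Tbr2-negative library in turn (0.0588 to 0.0912, limma adjusted p). The proliferation marker Mki67 averaged 14.9 ± 8.74 in Tbr2-positive and 7.97 ± 6.28 in Tbr2-negative libraries and did not pass (limma adjusted p = 0.322). Cdkn1a, the p21 gene, whose protein blocks cell cycle kinases, ranked lower at 3.36, 7.93, 3.6 and 1.67 in Tbr2-positive and 16.6, 23.2, 23 and 8.76 in Tbr2-negative libraries (-13.8 ± 3.8, limma adjusted p = 0.0205). That call ended without Tbr2-positive libraries 1 (0.0617), 3 (0.0571) and 4 (0.0725) and without Tbr2-negative libraries 2 (0.0504) and 3 (0.054, limma adjusted p).

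Of the 11 deacetylase genes, which include the targets of TSA, 1 ranked higher and 1 lower, near the 4.45% and 6.24% of all gene ends. Hdac9, a class IIa enzyme gene, ranked at 42.7, 46.9, 45.6 and 31.3 in Tbr2-positive and 14.8, 11.9, 6.79 and 5.12 in Tbr2-negative libraries (32 ± 6.25, limma adjusted p = 0.00175), with RNA at 85.4 and 112 CPM in Tbr2-positive against 24.3 and 18.7 CPM in Tbr2-negative libraries. Hdac11, the class IV enzyme gene, ranked at 25.5, 14.1, 15.6 and 5.32 in Tbr2-positive and 71, 60.6, 35.4 and 39.9 in Tbr2-negative libraries (-36.6 ± 8.44, limma adjusted p = 0.00586), with RNA at 7.68 and 10.6 CPM in Tbr2-positive against 33.2 and 33 CPM in Tbr2-negative libraries. Neither pair of groups overlapped, as held for most gene ends that passed the rank fit. RNA differed in the same direction as rank for both genes (edgeR adjusted p = 0.000169 and 0.00189). Hdac1, read at both gene ends, ranked at 98, 60.7, 98.9 and 99.2 in Tbr2-positive and 98.8, 36.2, 98 and 99.1 in Tbr2-negative libraries, library 2 being the low one in each population, and Hdac2 differed by 3.04 ± 6.04 (limma adjusted p = 0.854 and 0.793). Of 10 acetyltransferase genes 1 ranked higher and none lower, beside 4.45% and 6.24% of all gene ends. Hat1 was that gene, at 26.9 ± 6.28 in Tbr2-positive and 8.05 ± 5.9 in Tbr2-negative libraries (limma adjusted p = 0.0133), but it did not pass without Tbr2-negative library 2 (0.0562, limma adjusted p). H1f0, the gene of a linker histone typical of non-dividing cells, ranked at 87.5, 70.1, 80.5 and 90.3 in Tbr2-positive and 40.5, 48.1, 41.5 and 48.5 in Tbr2-negative libraries (37.5 ± 9.05, limma adjusted p = 0.00818), with RNA higher by 1.04 ± 0.17 on the log2 scale. Trnp1, whose product acts in progenitor nuclei, averaged 15.1 ± 5.64 in Tbr2-positive and 22.5 ± 8.77 in Tbr2-negative libraries and did not pass (limma adjusted p = 0.396).

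Of 12 immediate-early genes called, 3 ranked lower and none higher, beside 6.24% and 4.45% of all gene ends, with a median of -7.40. Klf4 ranked at 15.2, 9.97, 14 and 11.5 in Tbr2-positive and 59.4, 77.9, 51.1 and 76.6 in Tbr2-negative libraries (limma adjusted p = 0.000249), and Npas4, a gene induced by neuronal activity, at 3.36, 2.91, 12.3 and 0.43 in Tbr2-positive and 32, 42, 25.3 and 48.5 in Tbr2-negative libraries (limma adjusted p = 0.000774). The RNA of neither passed, both being under 3 CPM in all 4 libraries. Jund passed as lower (limma adjusted p = 0.0237) but not with a window of 2 kb (0.934), with both gene ends (0.939) or in the fits without Tbr2-positive libraries 1 (0.101), 2 (0.085) or 3 (0.0637), without Tbr2-negative library 2 (0.0595) or with lane as a covariate (0.0695). Of 4 Cajal-Retzius genes called in all 8 libraries 1 ranked lower and none higher, beside 6.24% and 4.45% of all gene ends. Their median difference was 2.20, and 2 of the 4 differences were positive. The lower one was Reln, the extracellular guidance protein gene of Cajal-Retzius cells and of interneurons. It ranked at 1.64, 0.957, 0.892 and 2.65 in Tbr2-positive and 18.6, 15.5, 32.7 and 27.9 in Tbr2-negative libraries (limma adjusted p = 0.000974), while its RNA did not pass (-0.35 ± 0.31). Ribosomal protein genes, which serve every cell, gave 1 higher and 1 lower of 38, below the 4.45% and 6.24% of all gene ends, with a median of 5.35. Neither call was stable: the Rps24 call ended without Tbr2-positive libraries 2, 3 and 4 and Tbr2-negative libraries 1, 2 and 3 (0.0545 to 0.0869), and that of Rps25 without every library but Tbr2-negative library 1 (0.0501 to 0.108) and with lane as a covariate (0.0888, limma adjusted p).

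At gene ends in the equal-length lists, 29 of 17297 (0.168%) were called only in Tbr2-positive and 163 (0.942%) only in Tbr2-negative libraries. Among the strongest of the 29, Stox2 had percentiles of 58.5, 55.1, 65.4 and 60.5 in the Tbr2-positive lists, Nhlh1 those given above, and the type IV collagen gene Col4a5 47.2, 29.9, 39.8 and 36.4. Agbl2, Liph, Parvaos, Tmem176a and Tmem176b made up the named set, the last pair sharing its interval in all 4 Tbr2-positive libraries. Besides Nhlh1, RNA was higher in Tbr2-positive libraries for Col4a5 (log2 fold change 2.02 ± 0.54) and Tmem176b (0.88 ± 0.25), with edgeR adjusted p of 0.0355 and 0.0452, and did not pass for the others of these 8. Of these 8, Col4a5, Liph and Tmem176b had an interval in all 4 full Tbr2-negative lists, Agbl2 and Parvaos in 3, Stox2 and Tmem176a in 2 and Nhlh1 in 1, each left out of the equal-length lists. The full-list percentiles of Col4a5 overlapped, at 50.6, 44.3, 42.6 and 36.4 in Tbr2-positive and 52, 53.5, 43.6 and 17.6 in Tbr2-negative lists. In vehicle lists of the same length all 8 were called in 2 or more of the 4 Tbr2-negative libraries, Liph and Tmem176b in all 4. The strongest of the 163 included Camk2b, a synaptic kinase gene with percentiles of 69.7, 80.5, 69.7 and 78.1 in the Tbr2-negative lists, Lamc3, a laminin gene with 69.7, 78.8, 79.7 and 88, and the calcium channel gene Cacna1i with 63.4, 46.2, 71.5 and 60.9. Eps15, Gpr22, Grip2, the potassium channel gene Kcns2 and Ppp2r2c followed. Camk2b, Gpr22 and Kcns2 had no interval in any Tbr2-positive library of either treatment. In vehicle, full Tbr2-positive lists held Eps15 in 3 of 3 libraries, Lamc3, Grip2 and Ppp2r2c in 2 and Cacna1i in 1. RNA was lower in Tbr2-positive libraries for Camk2b (54.6 and 35.5 CPM against 135 and 122 CPM in Tbr2-negative libraries), Gpr22 (35.6 and 34 CPM against 171 and 146 CPM in Tbr2-negative libraries), Grip2 and Ppp2r2c (edgeR adjusted p = 0.00359 to 0.0154). Leaving out 1 library gave 33 to 59 Tbr2-positive-only gene ends, with 44 without Tbr2-positive library 2, 48 without Tbr2-negative library 1 and 59 without Tbr2-negative library 3.

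The RNA-seq libraries offered a readout that the peak lists did not use. Over 20078 genes, 841 (4.19%) were higher and 1030 (5.13%) lower in Tbr2-positive libraries of TSA-treated cortex (edgeR adjusted p below 0.05, 2 libraries per population). Of the 548 genes with a higher H3K9ac rank and an RNA test, 159 (29%) were also higher in RNA and 5 lower (median log2 fold change 0.65). Of the 737 with a lower rank, 272 (36.9%) were lower in RNA and 5 higher, with a median of -1.01. The 11196 whose rank did not pass had 4.77% higher and 4.42% lower, with a median of 0.00. The gene ends called in one population followed the same order: of 20 called only in Tbr2-positive lists 5 were higher in RNA and none lower, and of 97 called only in Tbr2-negative lists 24 were lower and none higher. From the other side, the 698 genes with higher RNA and a gene end in all 8 lists had a median rank difference of 10.3, and the 772 with lower RNA one of -15.1. The RNA counts of calls moved with single libraries: they were 552 and 519 without Tbr2-positive library 1, 577 and 626 without Tbr2-positive library 2, 315 and 368 without Tbr2-negative library 1, 509 and 459 without Tbr2-negative library 2, and 1418 and 1634 with DESeq2.

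**Figure D5:**
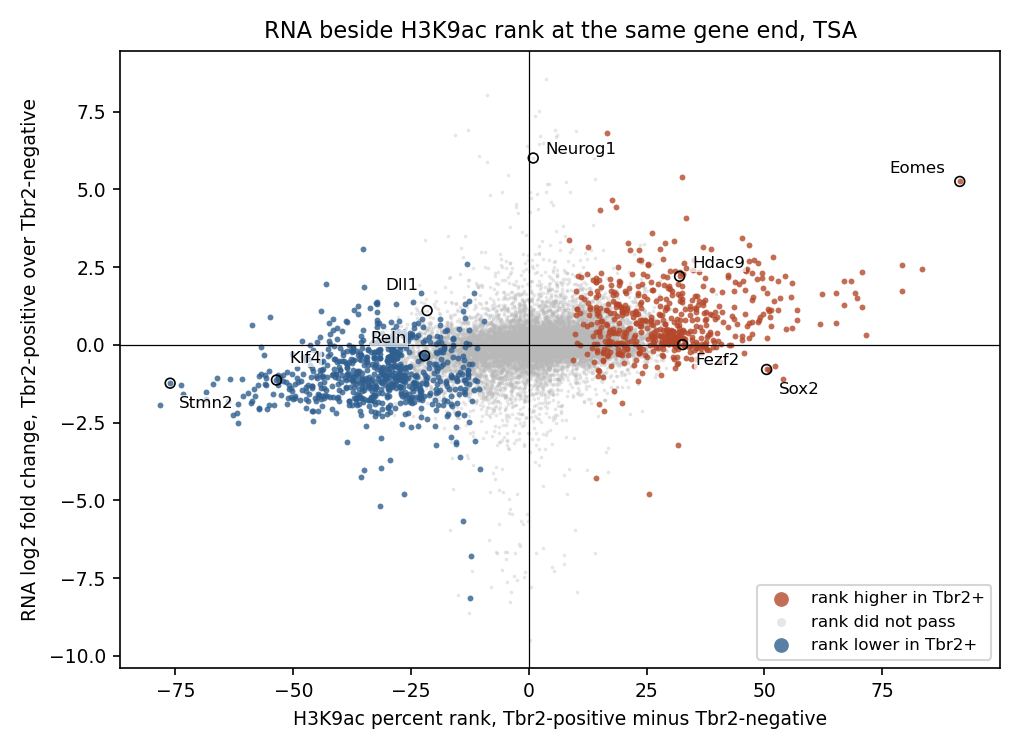
RNA log2 fold change (Tbr2-positive over Tbr2-negative, edgeR, 2 libraries per population) against the difference in H3K9ac percent rank at the same gene end, both in TSA-treated cortex. Red gene ends ranked higher, blue ranked lower and grey did not pass; Eomes lies at the upper right with 91.4 and 5.25, Neurog1 near a rank difference of 0.92 with 6.01, and Sox2 at 50.4 with -0.79.

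The same contrast in vehicle-treated cortex was set beside the TSA values, over the 14493 gene ends called in all 15 H3K9ac libraries. Of the 642 gene ends there that ranked higher with TSA, 611 had the same sign in vehicle, with a median difference of 29 in TSA and 20.4 in vehicle, and of the 906 that ranked lower 883 did (-31.1 and -22.5). The genes were chosen on the TSA values, so the TSA and vehicle medians are not compared. No gene end passed a test of the difference between the TSA and vehicle contrasts (0 higher and 0 lower, 0.0%, limma interaction). The smallest adjusted p among the gene ends called with TSA was 0.711 (limma interaction). Of the 14493 tested, 815 had an unadjusted p below 0.05, a cutoff that a share of about 0.05 meets without any difference. Eomes differed by 91.5 in TSA and 88.4 in vehicle, Dmrta2 by 79.3 and 80.6, Pax6 by 47.6 and 47.4, and Stmn2 by -76.2 and -81.3. Sox2 differed by 50.5 in TSA and 22.5 in vehicle, and Npas4 by -32.2 and -9.98, without passing (limma interaction adjusted p = 0.879 and 0.738). Cenpe, chosen after its values were seen, had opposite signs, at 17.35 in TSA and -8.03 in vehicle, and did not pass either (limma interaction adjusted p = 0.787).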

How the data were processed

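The members and gene lists were chosen with earlier results of these data known. The H3K9ac files were narrow peaks called per library with MACS 2.1.0.20140616 at a q threshold of 0.1 against 1 input per group, per the file headers, on mm10 per the submitters' processing notes, and the aligner was not given in the sources used here. Pileup signal and the −log10 q of each peak were the authors' deposited values, and pileup was used only as a rank within a library. The RNA files held the authors' deposited raw counts per gene, 22171133 to 26282652 per TSA library. Intervals sharing a base were merged into regions, and gene ends were windows of 1 kb around RefSeq starts (27024 genes) or both ends where no strand was given (7586 genes). Percent ranks and log2 widths of features called in all 8 libraries were fitted with limma 3.58.1 (trend, robust), with Benjamini-Hochberg adjustment over all features, and RNA with edgeR 4.0.16 quasi-likelihood over all 10 RNA libraries, in R 4.3.3. Single values per library were compared with exact two-sided permutation tests, and the fits were tested on simulated data. Named genes were the 10 largest non-overlapping rank differences in each direction, the 8 strongest gene ends called in one population, a short list of known genes and up to 3 members of each gene list with the smallest p, without clone names. The 5 strongest regions per population away from gene ends were named too. Lane codes came from the names of the deposited lists. Replicate numbers did not pair the libraries. Alternatives were stricter peaks, other cuts and merging rules, a 2 kb window, normal scores, lane, replicate block, other RNA scalings and DESeq2 1.42.0, and each library left out. Centred widths, both gene ends for every gene and gene ends counted by distinct interval were added after the data had been seen. Input libraries were not analysed here. Results for some genes under these rules are not reported here.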

Additional observations from a re-analysis of the deposited data

Results flagged for a closer look

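Of 184 groups of 4 libraries examined, 16 held a library far from the other 3 relative to the group's range, and chance flags about 1 in 20 groups. Among list properties, Tbr2-positive library 2 had a median interval width of 344 bases in the full lists. Tbr2-negative library 4, the one with the fewest tags, covered 25.82 Mb and had 37.89% of its full-list intervals inside genes, and Tbr2-negative library 2 had 18.13% inside genes in the equal-length list.

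Among gene ends of Tbr2-positive libraries, library 1 stood apart at Gli3 (99.05 percent rank), Otx1 (94.15) and Cxcr4 (78.26), a chemokine receptor gene. Library 2 stood apart at Hdac1 (60.66) and at the shared interval of Dmrta2 and Dmrta2os (76.09), and library 4 at Cenpe (17.19). Among Tbr2-negative libraries, library 1 stood apart at Chl1 (88.34), Notch1 (49.36) and Pou3f2 (89.76), and library 2 at Hdac1 (36.18) and Mki67 (17.32).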

How the results depend on the processing

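Of the alternative values for results that answer a comparison, 294 kept direction and call, 39 moved, 13 were weaker, 5 stronger and 7 reversed. Of those for single genes, 1151 kept both, 55 were weaker, 14 stronger and 5 reversed. With equal-length in place of full lists the width difference reversed (121 bases in full and -151 bases in equal-length lists), and the differences at gene ends (0.623), inside genes (-0.551) and away (-0.0715 percentage points) no longer passed. The counts called in one population then became 261 and 422 regions and 29 and 163 gene ends. Merging intervals up to 500 bases apart gave 33 Tbr2-positive-only regions, and a −log10 q of at least 3 gave 6 such gene ends. When intervals had to cover 50 percent of a region, 146 and 1606 equal-length regions were called in one population, 296 ranked higher and 336 lower, and 78 were wider and 2258 narrower, over 10222 regions tested. Setting absent regions to rank 0 gave 1748 and 2067, centring widths gave 1771 and 1635, and DESeq2 gave 1418 and 1634 RNA calls. The causes were not tested.

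Leaving out 1 library gave differences of -34063 to -23698 intervals and, for full lists, 114 to 139 bases, -0.709 to -0.0296 points for broad intervals, 20.1 to 24.1 points at gene ends, -19.3 to -16.3 inside genes and -4.81 to -3.84 away. For equal-length lists it gave -168 to -135 bases, -2.67 to -1.48 points for broad intervals, -0.749 to 3.81 at gene ends, -2.78 to 0.368 inside genes and -1.03 to 0.381 away; the reversed values were -0.735 and -0.749, 0.367 and 0.368, and 0.367 and 0.381. Counts in one population ranged over 74 to 128 and 2116 to 3617 regions in full lists, 283 to 407 and 479 to 764 in equal-length lists, and for gene ends 3 to 7 and 430 to 556, and 33 to 59 and 174 to 222. Rank calls ranged over 716 to 838 higher and 953 to 1141 lower regions and 455 to 525 higher and 584 to 836 lower gene ends, widths over 136 to 215 and 4006 to 5982, RNA over 315 to 874 and 368 to 1090, and the TSA by vehicle difference stayed at 0. Single genes that did not pass and changed sign were Tbr1 (-18.7 with both gene ends) and, over the fits with 1 library left out, Hdac1 (-9.44 to 15.6), Hdac2 (-1.36 to 6.85), Neurog1 (-0.282 to 2.46) and Kdr (-6.29 to 0.168).

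The replicate numbers did not pair the libraries (correlations of same-numbered deviations of 0.042, 0.068, 0.011 and -0.014). With the replicate block the fits gave 602 and 868 gene ends, 921 and 1169 regions, 215 and 5526 widths and 809 and 1035 RNA calls. Lane and population were only partly crossed, list length and pileup scaling differed between populations, and RNA rested on 2 libraries each, which limits every count above.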
